A study of Mus musculus and Rattus norvegicus with 33 samples.

Results

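RNA sequencing of the rat tibialis anterior, a fast shin muscle that raises the foot, was compared between 5 trained left legs and 3 sham left legs, 8 of the 33 libraries of the series. These legs were chosen by their labels alone. The rats were wild type, and stimulators that had been implanted and programmed over Bluetooth drove the nerve of the left leg. Of the trained left legs, 2 had been trained daily for 30 days (TAL292 and TAL294) and 3 every 3 days for 30 days (TAL295, TAL298 and TAL299), and all 5 were labelled as taken 1 hour after exercise. The sham left legs (TAL296, TAL297 and TAL300) were labelled with surgery and with no training and no sampling time, and the labels do not say whether a device was implanted in them. The right leg of each of these 8 rats served as its contralateral control. Trained and sham legs were both left legs of operated rats, so side was the same and both groups had surgery. Whether an implanted device was also common to both cannot be told from the labels. Changes left by the last session cannot be told apart from those of 30 days of training, since no trained leg was taken at rest. Strain, age and sex of the rats were not used here.

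Muscle fibres that are made to contract open calcium channels, draw on their energy stores and carry mechanical load. Within about an hour such activity switches on immediate early genes, which code for transcription factors, and then chaperones and metabolic regulators. Over weeks, fibres that are stimulated often change the myosin they make, moving from the fastest form (IIB, Myh4) towards IIX (Myh1), IIA (Myh2) and slow (Myh7) forms. The tibialis anterior is a fast muscle in which the IIB form usually prevails.

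Expression was given as CPM, counts scaled to the total of each library, and changes are the difference of mean log2(CPM + 0.5) between trained and sham legs, with a standard error (SE). They came from limma's moderated linear model over all 16 rat libraries, and p-values were adjusted by the Benjamini-Hochberg method over the 10356 genes tested. The threshold for a call was an adjusted p of 0.05. Values per leg are given in the order TAL292, TAL294, TAL295, TAL298, TAL299 for trained legs and TAL296, TAL297, TAL300 for sham legs, and means carry the SD (n = 5 trained, n = 3 sham). Each leg of a group came from a different rat. In bulk tissue, fewer cells of a type and less RNA per cell cannot be told apart.

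The estimated depth of the left-leg libraries was 11.6 to 28.0 M reads (1 M being 1000000), with 17.6 ± 4.20 M in trained and 20.7 ± 6.44 M in sham legs (exact permutation p = 0.464), and the 10 most abundant genes took 26.2 ± 1.89% of the CPM in trained legs and 30.4 ± 3.77% in sham legs (exact permutation test over the 56 assignments of 8 legs, 2-sided, p = 0.143). Contralateral leg TAR299 was the shallowest library, with 4.9 M reads, and it entered the fit only through the spread. Without it 1511 genes were called, in place of 891. Markers of muscle were abundant in the sham legs, with 75402 ± 15266 CPM of Myh4, 15438 ± 3228 CPM of Actn3 and 7914 ± 1701 CPM of Mb, as the tissue label says. Of 7 tested muscle identity markers 1 rose (Mb) and 2 fell (Myh4 and Actn3), with a median of −0.44. Of the genes tested, 891 (8.6%) were called between trained and sham legs, 689 higher in the trained legs (6.65%) and 202 lower (1.95%). The rise was at least 2-fold for 338 genes and at least 8-fold for 35, while the fall was at least 2-fold for 51 and at least 8-fold for 2, Myh4 and Adgrb2. The median change over all genes tested was 0.08. After rescaling by median-of-ratios size factors, which put that median at 0.00, 595 genes were called higher and 332 lower, so the share of higher calls was 64.2% in place of 77.3%. In 626 of the 689 genes called higher and 193 of the 202 called lower the groups did not overlap, against 1246 (12.0%) and 718 (6.93%) of all genes tested.

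Immediate early genes held the largest rises. Of 29 tested, 21 rose and none fell, with a median change of 2.55 against 0.08 over all genes. Nr4a3, an orphan nuclear receptor gene of chromosome 5 (62361645 to 62401485, rn7), measured 789, 711, 893, 876 and 1147 CPM in the trained legs and 6.68, 8.25 and 2.36 CPM in the sham legs. Every trained leg was far above every sham leg, and the change was 7.27 ± 0.83 (SE; adjusted p = 9.05e-06). Atf3, a stress-induced transcription factor, measured 805, 636, 598, 664 and 1008 CPM against 4.54, 4.82 and 5.22 CPM. The sham legs lay close together, and Atf3 rose by 7.09 ± 0.42 (adjusted p = 2.09e-09). Its relatives in the AP-1 family behaved alike in direction. Fos, the founding member, rose by 4.53 ± 0.47 (adjusted p = 3.59e-06), from 10.3 ± 7.55 to 226 ± 72.0 CPM. Fosb, whose product pairs with Jun proteins, measured 21.2, 15.7, 73.0, 93.2 and 67.2 CPM against 0.930, 0.317 and 0.214 CPM. The groups did not overlap (5.55 ± 0.65; adjusted p = 1.22e-05), and the 3 legs trained every 3 days held more than the daily legs, although that difference did not pass the test (−2.04 ± 0.67 for daily minus every 3 days, adjusted p = 0.551). Jun, Junb, Jund and Fosl1 were also called higher, whereas Fosl2 was not.

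Egr1, a zinc finger factor switched on by MAP kinase signalling, was likewise lower in the daily than in the other trained legs, without a call between schedules. Its values were 90.0, 61.8, 181, 210 and 169 CPM in trained legs and 6.02, 2.09 and 2.46 CPM in sham legs (5.14 ± 0.64; adjusted p = 3.06e-05). The lowest trained leg, TAL294, stood well above the highest sham leg, TAL296. Maff, a small partner of AP-1-like factors, and Csrnp1, a nuclear protein induced by axin, had the smallest adjusted p-values of the list. Maff held 51.7 to 99.9 CPM in trained legs and 1.71 to 2.54 CPM in sham legs (4.82 ± 0.26; adjusted p = 7.72e-10). Csrnp1 held 66.6 to 139 CPM against 2.18 to 3.34 CPM (4.97 ± 0.27; adjusted p = 8.3e-10). Nr4a1, the nuclear receptor most abundant of its family here, was already at 139 ± 34.1 CPM in sham legs and reached 1183 ± 270 CPM in trained legs (3.08 ± 0.23; adjusted p = 6.75e-08). Btg2, an antiproliferative gene, rose by 3.04 ± 0.31 (adjusted p = 2.87e-06). Egr2, which is also a Schwann cell gene, measured 2.88 to 14.4 CPM in trained and 0.109 to 0.508 CPM in sham legs (3.14 ± 0.42; adjusted p = 5.99e-05). Egr2 met the filter of CPM 1 or more in at least 2 of 16 libraries through legs where it was high. With at least 8 libraries required it was not tested. None of the 6 other tested Schwann cell and nerve markers was called.

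Other rapidly switched genes rose beside them. Dusp2, a nuclear phosphatase that turns off MAP kinases, measured 27.5, 14.8, 42.9, 31.0 and 18.4 CPM against 0.383, 0.127 and 0.393 CPM (5.02 ± 0.29; adjusted p = 1.47e-09). It was the 1 member called of 9 MAP kinase phosphatases tested, whose median change was 0.30. The filter of CPM 1 or more in at least 2 of 16 libraries let Dusp2 in through legs where it was high. With CPM 1 or more required in at least 8 libraries Dusp2 was not tested, and 0 of 8 members were called. Ciart, a repressor within the circadian clock, measured 19.1, 27.9, 71.3, 62.4 and 67.9 CPM against 0.328, 0.254 and 3.25 CPM (5.06 ± 0.67; adjusted p = 5.44e-05). Its sham leg TAL300 was higher than the other 2, and still below every trained leg. The other 15 clock genes tested were not called, and the median of all 16 was 0.25.

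**Figure D1:**
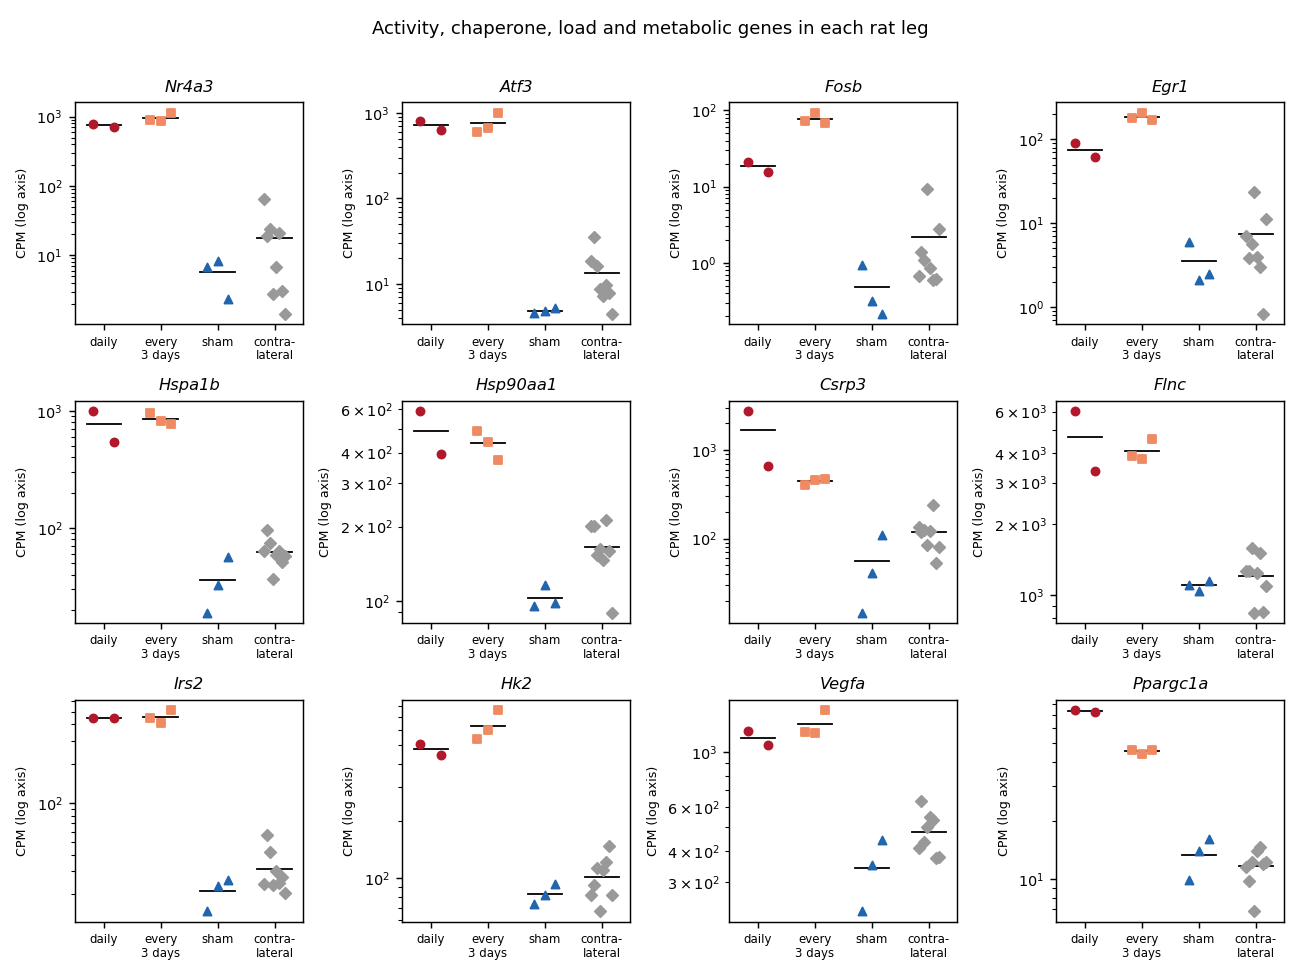
CPM of 12 genes on log axes in the 2 daily, 3 every-3-days, 3 sham and 8 contralateral rat legs. Each point is 1 leg and each line a group mean. In every panel the 5 trained legs sit above the 3 sham legs, and Fosb and Egr1 are higher in the 3 legs trained every 3 days than in the daily legs, whereas Ppargc1a is higher in the daily legs.

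Heat shock proteins and chaperones, which keep proteins folded under load and heat, formed the second group. Of 27 tested, 14 rose and none fell (median 0.70). The inducible chaperone Hspa1b measured 988, 544, 958, 817 and 776 CPM in trained legs and 19.0, 32.5 and 57.0 CPM in sham legs (4.58 ± 0.29; adjusted p = 4.4e-09). Hspa1a, its near-identical neighbour on chromosome 20, held 36.9 to 84.1 CPM against 1.25 to 3.28 CPM (4.27 ± 0.46; adjusted p = 4.89e-06). An entry with no gene name, LOC108348108, rose by 5.93 ± 0.37 (adjusted p = 2.99e-09). Its deposited span (3870765 to 3873222) lies inside that of Hspa1a (3868790 to 3874712), and Hspa1b begins nearby at 3855104. Reads of these entries could have been divided between them by the counting, so their separate levels are uncertain while all 3 moved up.

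Hsp90aa1, the stress-inducible cytosolic Hsp90, measured 588, 394, 489, 443 and 374 CPM against 95.1, 116 and 97.6 CPM (2.13 ± 0.22; adjusted p = 2.85e-06). The chaperone genes Dnaja1 (1.60 ± 0.17; adjusted p = 5.57e-06) and Dnajb4 (1.24 ± 0.13; adjusted p = 4.99e-06) rose as well. The small heat shock protein Hspb7, which binds filaments of the sarcomere, measured 4819, 1522, 1086, 1265 and 1365 CPM against 134, 178 and 353 CPM. Leg TAL292 stood far above the other trained legs, and the groups did not overlap (3.05 ± 0.47; adjusted p = 0.000271). Cryab, the small heat shock protein that binds desmin, followed the same order, with 2773, 1370, 922, 1239 and 1306 CPM against 333, 409 and 501 CPM (1.79 ± 0.26; adjusted p = 0.000181). Chaperones of other compartments were not called, among them Hspa5 and Hsp90b1 of the endoplasmic reticulum and Hspd1 of mitochondria (0.31 ± 0.17; adjusted p = 0.274).

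Genes that sense stretch and brace the sarcomere rose as well. Of 19 stretch and load genes tested, 9 rose and none fell (median 1.07). Csrp3, the muscle LIM protein of the Z-disc, measured 2734, 668, 402, 455 and 468 CPM in trained legs and 14.6, 41.0 and 111 CPM in sham legs (4.07 ± 0.60; adjusted p = 0.000176). All trained legs exceeded all sham legs, and leg TAL292 was far above the next. Flnc, a filamin that links actin at the Z-disc, measured 6012, 3369, 3874, 3766 and 4573 CPM against 1106, 1038 and 1151 CPM (1.95 ± 0.21; adjusted p = 4.89e-06). Bag3, which clears damaged filamin together with chaperones, rose by 1.50 ± 0.17 (adjusted p = 7.25e-06), from 121 ± 19.3 to 343.3 ± 49.4 CPM. Fhl1, a LIM protein tied to fibre growth, rose by 2.37 ± 0.32 (adjusted p = 7.24e-05), from 1805 ± 1217 to 8251 ± 2636 CPM. Tnfrsf12a, the receptor of the cytokine TWEAK, measured 212, 115, 116, 119 and 128 CPM against 23.0, 15.4 and 9.14 CPM, so that its sham legs were all below 30 CPM (3.13 ± 0.36; adjusted p = 9.56e-06).

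The ankyrin repeat gene Ankrd1, known to rise with stretch and with denervation, measured 279, 151, 229, 95.8 and 99.6 CPM against 58.4, 16.1 and 66.4 CPM (1.96 ± 0.49; adjusted p = 0.0178). Sham leg TAL297 set much of the distance, and without it the call was lost (adjusted p = 0.163). Its relative Ankrd2, a slow-fibre gene, measured 55.9, 14.3, 9.09, 22.7 and 32.3 CPM against 0.876, 4.50 and 15.6 CPM. Here the groups overlapped, and the call (2.24 ± 0.66; adjusted p = 0.0409) was lost without either of sham legs TAL296 (adjusted p = 0.304) and TAL297 (0.125), without any of trained legs TAL292 (0.107), TAL298 (0.0558) and TAL299 (0.0788), and in own-leg changes (0.419).

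**Figure D2:**
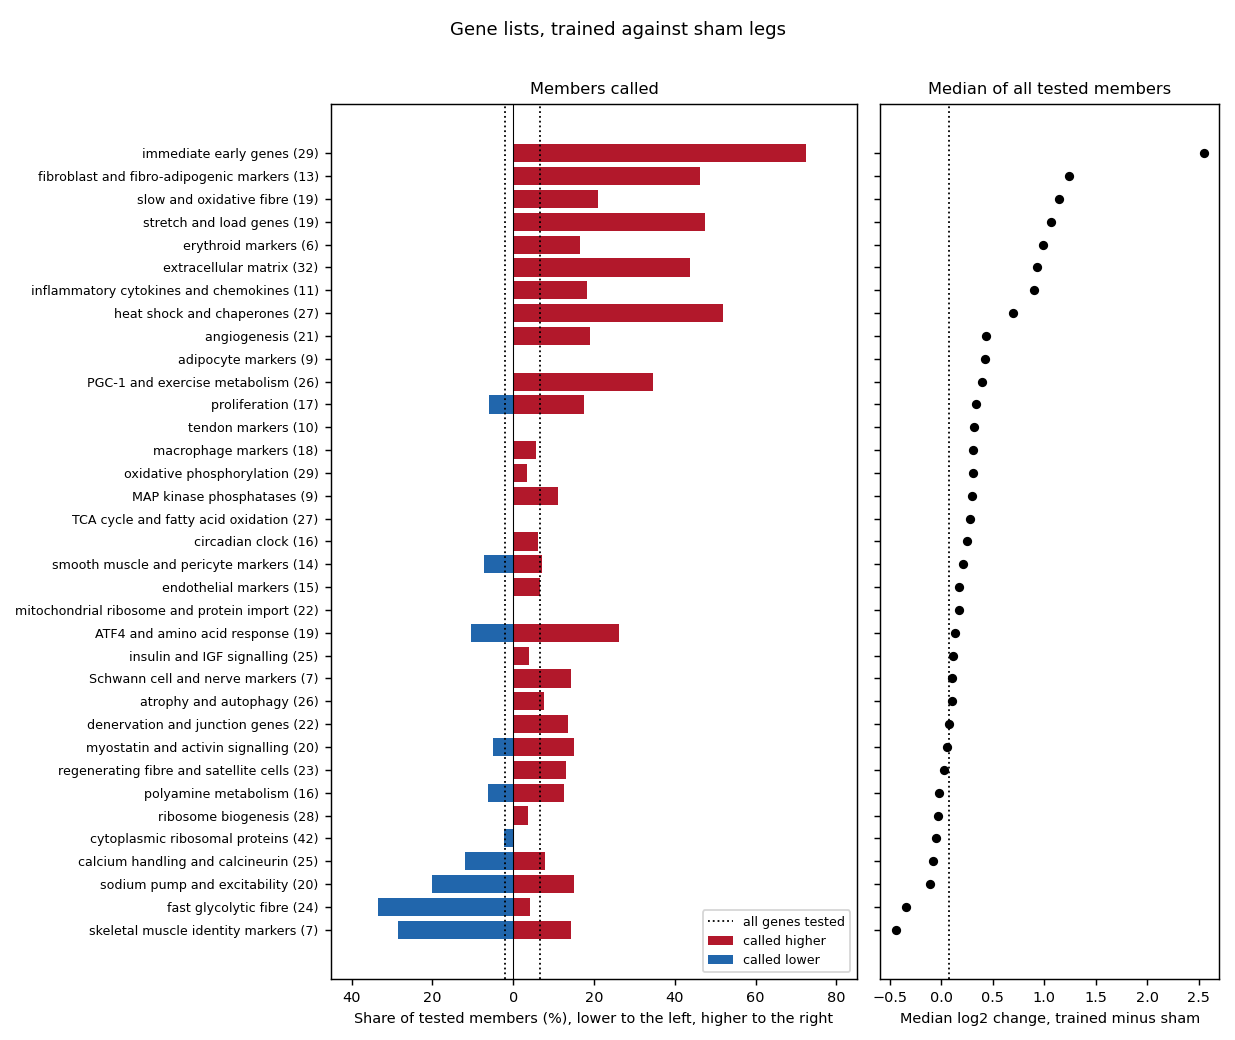
Left, the share of the tested members of each gene list called higher (to the right) or lower (to the left) in trained against sham legs, in percent, with the number tested in brackets, for lists with 5 or more tested members. Right, the median log2 change of all tested members. Dotted lines give the same over all 10356 genes (6.65% higher, 1.95% lower, median 0.08), and immediate early genes lie farthest out at a median of 2.55.

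Among the myosin heavy chain genes, Myh4 fell and Myh1 rose. Myh4, the IIB heavy chain of chromosome 10 (51923359 to 51946298), measured 71.4, 589, 2273, 15060 and 5163 CPM in trained legs and 92069, 72040 and 62098 CPM in sham legs. The trained legs differed widely among themselves, yet the highest was far under the lowest sham leg, and the change was −5.64 ± 1.03 (adjusted p = 0.00165). Myh1, the IIX heavy chain, which lies beside it (51885913 to 51909700), measured 48528, 52372, 67096, 58674 and 48199 CPM against 10025, 15302 and 19896 CPM (1.91 ± 0.30; adjusted p = 0.000424). Its trained legs varied little, in contrast to those of Myh4. Myh2, the IIA heavy chain, measured 6077, 4855, 2347, 4808 and 8185 CPM against 526, 3820 and 6949 CPM and was not called (1.01 ± 0.59; adjusted p = 0.322). Myh7, the slow heavy chain, measured 846, 857, 169, 375 and 2488 CPM against 44.0, 409 and 1073 CPM and was not called either (1.27 ± 0.82; adjusted p = 0.384). For both the lowest leg of all was sham leg TAL296, and without it the change was −0.08 for Myh2 and −0.03 for Myh7. These genes are near-identical over long stretches, so reads could have been divided between them.

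Per kilobase of transcript, Myh4 made up 89.7%, 78.7% and 69.1% of the 4 adult heavy chains in the sham legs. In the trained legs it made up 0.129%, 1.01%, 3.17%, 19.1% and 8.08%, so its share was lowest in the daily legs. Myh1 made up 87.4%, 89.2%, 93.3%, 74.3% and 75.2% of the trained legs against 9.74%, 16.7% and 22.0% of the sham legs. The mean share of Myh1 was 83.9 ± 8.62% in trained and 16.2 ± 6.17% in sham legs, and that of Myh4 6.31 ± 7.81% and 79.2 ± 10.3%. Both differences had an exact permutation p of 0.0357 (2-sided, 0.0714 adjusted over the 4 heavy chains), the smallest that the 56 assignments allow. Myh2 (8.26 ± 3.78% against 4.12 ± 3.59%) and Myh7 (1.54 ± 1.47% against 0.570 ± 0.592%) both gave an exact permutation p of 0.214. In the 8 contralateral legs Myh4 held 53.0 to 83.5% and Myh1 11.5 to 36.0%. The summed CPM of the 4 genes was 65806 ± 9600 in trained and 94750 ± 6897 in sham legs (exact permutation p = 0.0357).

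**Figure D3:**
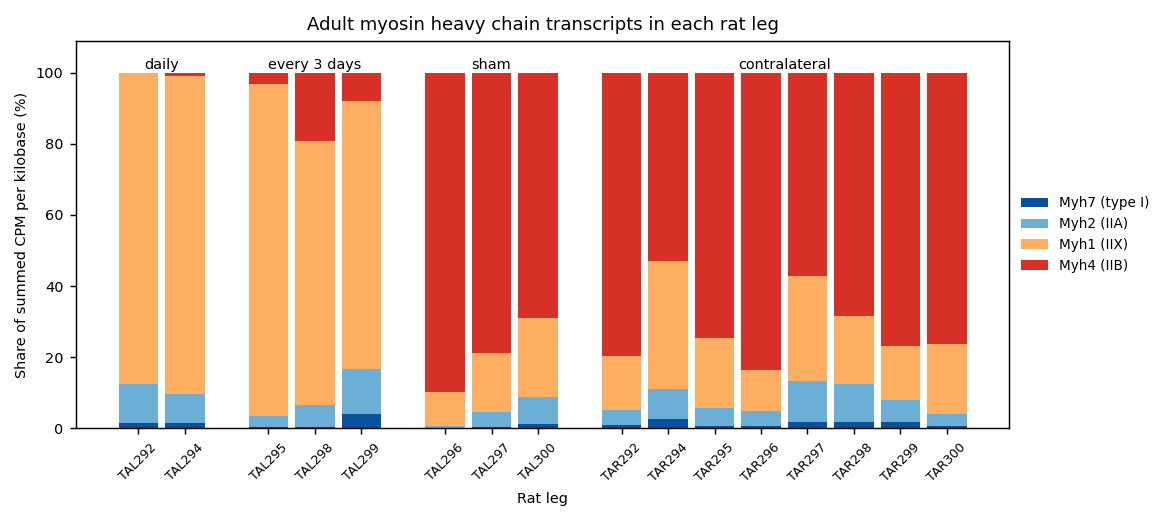
Share of each adult myosin heavy chain in their summed CPM per kilobase, in percent, for each of the 16 rat legs. Red (Myh4) fills 69.1 to 89.7% of the sham bars and 0.129 to 19.1% of the trained bars, where orange (Myh1) fills 74.3 to 93.3%.

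Some other genes of fast glycolytic fibres fell as well as Myh4. Of 24 tested, 8 fell (Myh4, Actn3, Mybpc2, Pvalb, Casq1, Pygm, Gpd1 and Ampd1) and Myh1 alone rose, with a median of −0.34. Actn3, the alpha-actinin of fast fibres, measured 1479, 3036, 8060, 8769 and 6498 CPM against 18822, 15098 and 12394 CPM (−1.73 ± 0.41; adjusted p = 0.0134). Every trained leg was below every sham leg, and the daily legs were the lowest. Pvalb, the calcium buffer that speeds relaxation, measured 196, 222, 838, 845 and 651 CPM against 1786, 1459 and 1463 CPM (−1.77 ± 0.47; adjusted p = 0.0236). Gpd1, which feeds glycolytic electrons into mitochondria, measured 505 CPM in leg TAL292 and 889 to 905 CPM in the other trained legs, against 1313 to 1591 CPM (−0.86 ± 0.18; adjusted p = 0.00552). Mybpc2, the fast myosin-binding protein, fell by 0.80 ± 0.20 (adjusted p = 0.0195). Pygm, the muscle glycogen phosphorylase, fell by 0.67 ± 0.18 (adjusted p = 0.0240) and Ampd1, the muscle AMP deaminase, by 1.08 ± 0.28 (adjusted p = 0.0223). Most enzymes of glycolysis on the list, such as Pfkm, Aldoa and Ldha, were not called.

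Without sham leg TAL296 the number of fast-fibre genes called lower was 2, and without TAL297 it was 2 as well. Myh4 was called in each alternative that kept it. Actn3 lost its call without TAL296 (adjusted p = 0.0804), without TAL297 (0.0568) and in own-leg changes (0.149), and so did Mybpc2 (0.133, 0.0656 and 0.133). Pvalb lost it without TAL296 (0.103), TAL297 (0.0779), TAL292 (0.059) or TAL294 (0.0543) and in own-leg changes (0.0712), while Gpd1 lost it only in own-leg changes (0.0812). Own-leg changes are the differences of left minus right leg in each rat, compared between trained and sham rats. In them 1 fast-fibre gene, Myh4, was called lower in place of 8, so the calls on the others, Pygm and Ampd1 included, were lost.

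Of 19 slow and oxidative fibre genes 4 rose (Actn2, Mb, Csrp3 and Ankrd2) and none fell, with a median of 1.14. Csrp3 and Ankrd2 are also counted among the stretch and load genes above. The slow myosin and troponin genes Myh7, Myl2, Myl3, Tnnt1, Tnni1 and Tnnc1 were not called. Actn2, the alpha-actinin of all fibres, measured 3910, 3304, 2628, 2779 and 2763 CPM against 1025, 1210 and 2111 CPM (1.14 ± 0.23; adjusted p = 0.00375; own-leg adjusted p = 0.0694). Mb, the oxygen store myoglobin, measured 19047, 14236, 11688, 10743 and 14649 CPM against 6037, 9355 and 8350 CPM (0.83 ± 0.22; adjusted p = 0.0247). The groups did not overlap, but the call on Mb was lost without TAL296 (adjusted p = 0.174), without TAL292 (0.0609) and in own-leg changes (0.194). Leaving out single legs moved the median of the list between 0.15, without sham leg TAL296, and 1.98.

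Calcium handling genes split. Rcan1, a feedback inhibitor of calcineurin that is switched on by calcineurin signalling itself, measured 1075, 583, 341.7, 499 and 414 CPM against 61.2, 82.3 and 78.2 CPM (2.86 ± 0.34; adjusted p = 1.34e-05). Every trained leg stood far above every sham leg. Nfatc1, the calcineurin-responsive transcription factor linked to slow fibres, measured 64.6 to 102 CPM against 46.3 to 54.5 CPM (0.68 ± 0.19; adjusted p = 0.0329). Casq1, the calcium store protein of fast fibres, measured 1599 to 2724 CPM against 3090 to 3857 CPM (−0.71 ± 0.20; adjusted p = 0.0355), and Jph2, which joins the calcium store to the surface membrane, 211 to 400 CPM against 435 to 558 CPM (−0.75 ± 0.22; adjusted p = 0.0416). Of 25 genes tested on this list, 2 rose and 3 fell (median −0.08). Without sham leg TAL296 the calls on Nfatc1 (adjusted p = 0.115), Casq1 (0.175) and Jph2 (0.184) were lost, and likewise without TAL297 (0.148, 0.107 and 0.145), TAL292 (0.0642, 0.091 and 0.107) or TAL294 (0.0562, 0.0796 and 0.0921) and, without TAL299, at 0.0747, 0.0617 and 0.0611. In own-leg changes the adjusted p was 0.204 for Nfatc1, 0.162 for Casq1 and 0.0416 for Jph2, the last again a call.

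Some metabolic regulators of exercised muscle rose, by unequal amounts. Of 26 genes on the list of PGC-1 and exercise metabolism, 9 rose and none fell (median 0.40). Irs2, an insulin receptor substrate, measured 446, 444, 448, 410 and 514 CPM in trained legs and 14.8, 23.2 and 25.9 CPM in sham legs. The trained legs were tightly grouped, and Irs2 rose by 4.41 ± 0.26 (adjusted p = 1.47e-09). It was the 1 gene called among 25 of insulin and IGF signalling (median 0.11). Hk2, the hexokinase that traps glucose in muscle, measured 508, 445, 537, 599 and 763 CPM against 73.3, 81.9 and 93.2 CPM (2.76 ± 0.21; adjusted p = 7.63e-08). Ppargc1a, the coactivator PGC-1alpha that drives mitochondrial genes, measured 74.2, 72.7, 46.4, 44.0 and 46.5 CPM against 9.85, 14.0 and 16.04 CPM (2.04 ± 0.23; adjusted p = 9.05e-06). Both daily legs were above the 3 others, but the difference between schedules did not pass the test. Sirt1, a deacetylase that acts on PGC-1alpha, rose by 0.88 ± 0.15 (adjusted p = 0.000924), from 16.1 ± 3.28 to 30.0 ± 4.77 CPM.

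Genes of the mitochondrial machinery itself were mostly not called. Of 29 genes of oxidative phosphorylation 1 rose, Cycs (cytochrome c), at 1729 ± 352 against 1009 ± 328 CPM (0.81 ± 0.22; adjusted p = 0.0274). That call was lost without TAL296 (adjusted p = 0.225), TAL297 (0.0635), TAL292 (0.0641), TAL294 (0.0629) or TAL299 (0.051). None of 27 genes of the TCA cycle and fatty acid oxidation was called and none of 22 genes of the mitochondrial ribosome and protein import, although the medians of 0.28 and 0.17 were above that of all genes. Acadm, of fatty acid oxidation, measured 898 to 1497 CPM against 549 to 1133 CPM (0.49 ± 0.22; adjusted p = 0.192).

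Of 21 angiogenesis genes 4 rose and none fell (median 0.43). Vegfa, the main growth factor of capillaries, measured 1208, 1068, 1204, 1192 and 1470 CPM against 229, 353 and 443 CPM (1.89 ± 0.19; adjusted p = 3.43e-06). Hif1a, the oxygen-sensing factor that drives Vegfa under hypoxia, measured 55.5 to 73.8 CPM against 13.2 to 32.6 CPM (1.61 ± 0.21; adjusted p = 5.07e-05). Adm, a vasodilator peptide, rose by 2.38 ± 0.34 (adjusted p = 0.000144), from 1.93 ± 1.22 to 11.2 ± 3.60 CPM. Thbs1, a matrix protein that restrains vessel growth, measured 20.6, 10.9, 34.4, 14.2 and 24.5 CPM against 1.64, 1.52 and 2.29 CPM (3.11 ± 0.29; adjusted p = 7.95e-07). Endothelial markers as a list stood near the background, with 1 of 15 called, Esam, at 18.4 ± 3.06 against 11.1 ± 2.20 CPM (0.71 ± 0.16; adjusted p = 0.00764; 0.0758 without TAL296 and 0.2 in own-leg changes). The summed CPM of these markers was 416 to 697 in trained and 352 to 501 in sham legs.

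Protein turnover and stress genes gave a mixed account. Trim63, the muscle ubiquitin ligase MuRF1, measured 469, 481, 748, 646 and 807 CPM against 224, 217 and 219 CPM (1.48 ± 0.17; adjusted p = 9.07e-06). Fbxo32, the ligase atrogin-1 that often moves with it in wasting, measured 32.2 to 53.4 CPM against 47.2 to 65.3 CPM and was not called (−0.39 ± 0.25; adjusted p = 0.364). Of 26 atrophy and autophagy genes 2 rose (median 0.10), the other being Gabarapl1, an autophagosome protein (0.92 ± 0.21; adjusted p = 0.00883; 0.0738 without TAL296 and 0.0572 without TAL297). Mstn, the growth inhibitor myostatin, measured 2.02 to 19.8 CPM in trained and 5.86 to 15.3 CPM in sham legs and was not called (−0.34 ± 0.50; adjusted p = 0.749), its sign turning without TAL294 (0.06) or TAL296 (0.005).

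Among 19 genes of the ATF4 and amino acid response 5 rose and 2 fell (median 0.13). Ddit3, the factor CHOP, measured 82.3, 60.5, 83.8, 100 and 129 CPM against 9.74, 14.4 and 18.3 CPM (2.64 ± 0.24; adjusted p = 6.45e-07). Ppp1r15a, which restores translation after stress, rose by 1.92 ± 0.18 (adjusted p = 1.04e-06), and Slc38a2, a glutamine transporter, by 1.35 ± 0.14 (adjusted p = 4.07e-06). Against these rises Chac1, which breaks down glutathione, fell, from 24.1, 71.3 and 29.5 CPM in sham legs to 7.17, 6.88, 3.82, 2.95 and 9.32 CPM (−2.63 ± 0.53; adjusted p = 0.00371; own-leg adjusted p = 0.0842). Asns, Atf4 itself and 10 others were not called.

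Ribosomal genes stayed near the background. Of 42 cytoplasmic ribosomal protein genes 1 fell, Rpl10, at 254 ± 16.8 against 365 ± 19.9 CPM (−0.52 ± 0.14; adjusted p = 0.0278), and the median of the list was −0.05. Its call was lost without TAL294 (adjusted p = 0.0548), TAL295 (0.0579), TAL296 (0.106) or TAL297 (0.123) and in own-leg changes (0.489). Rpl3l, the muscle form of ribosomal protein L3, measured 521 to 627 CPM against 543 to 610 CPM (−0.01 ± 0.14; adjusted p = 0.978), with the sign changing between alternatives. Its general counterpart Rpl3 was 39.9 ± 5.55 CPM in trained and 33.6 ± 6.66 CPM in sham legs (0.25 ± 0.16; adjusted p = 0.387). Of 28 genes of ribosome biogenesis 1 rose, Polr1a, a subunit of RNA polymerase I (0.54 ± 0.15; adjusted p = 0.0326), a call lost without any of TAL292, TAL295, TAL299 or the sham legs (0.0599 to 0.126), in own-leg changes (0.269) and after median-of-ratios rescaling (0.0637).

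The list of sodium pump and excitability genes held calls in both directions. Of 20 tested, 3 rose and 4 fell (median −0.11), where 6.65% of all genes tested were called higher and 1.95% lower. Without sham leg TAL296, 0 were called higher and 1 lower, and without TAL297, 2 higher and 1 lower. Atp1b2, a beta subunit of the sodium pump, measured 81.3, 56.8, 219, 193 and 197 CPM against 654, 644 and 360 CPM (−2.02 ± 0.42; adjusted p = 0.00456; own-leg adjusted p = 0.0971). Slc16a1, the lactate carrier MCT1, rose by 1.02 ± 0.24 (adjusted p = 0.0116), and Slc12a2, a salt cotransporter, by 0.51 ± 0.12 (adjusted p = 0.0116). Without sham leg TAL296 the adjusted p was 0.112 for Slc16a1 and 0.105 for Slc12a2, and in own-leg changes 0.0708 and 0.0956.

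Denervation genes gave no general rise. Of 22 denervation and junction genes 3 rose, Ankrd1, Lrp4 and Chrnb1, and none fell (median 0.08). Chrna1, the acetylcholine receptor subunit that rises after nerve injury, measured 4.35 to 7.38 CPM in trained and 3.43 to 10.1 CPM in sham legs (0.03 ± 0.40; adjusted p = 0.974), and its sign turned after median-of-ratios rescaling (−0.04). Chrnb1, another subunit of that receptor, was 63.5 ± 7.43 against 45.2 ± 5.63 CPM (0.49 ± 0.13; adjusted p = 0.0279), a call lost without TAL296 (0.181), TAL292 (0.06) or TAL299 (0.0647) and in own-leg changes (0.16). Lrp4, the receptor for agrin at the junction, was 25.6 ± 4.65 against 13.3 ± 3.87 CPM (0.94 ± 0.19; adjusted p = 0.00358; own-leg adjusted p = 0.081). Myog, the differentiation factor myogenin, was 16.9 ± 6.69 against 11.3 ± 5.73 CPM and was not called (0.58 ± 0.31; adjusted p = 0.273).

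Of 23 genes of regenerating fibres and satellite cells 3 rose and none fell (median 0.03), namely Myf6, a myogenic factor of mature fibres (0.65 ± 0.17; adjusted p = 0.0205), Cdkn1c, a cell cycle inhibitor (1.26 ± 0.29; adjusted p = 0.00977), and Dlk1, a membrane ligand of the Notch family (1.59 ± 0.43; adjusted p = 0.0257). All 3 calls were lost without sham leg TAL297 (adjusted p = 0.0915, 0.0779 and 0.12) and in own-leg changes (0.194, 0.0502 and 0.225). Dlk1 and Cdkn1c also lost theirs without TAL296 (0.0689 and 0.0607), Myf6 and Dlk1 without TAL300 (0.0668 and 0.0556), Myf6 without TAL292 (0.0505) and Dlk1 without TAL295 (0.0582) or TAL299 (0.0502). The stem cell marker Pax7, the embryonic myosin Myh3 and the neonatal myosin Myh8 were not called.

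Matrix genes rose in trained legs, and so did some markers of fibroblasts. The lists share members, among them Lum, Dcn, Col1a1 and Col3a1, so their counts and sums are not separate. Of markers only on the fibroblast list, Gsn, Dpt and Smoc2 were called, and Pdgfra, Cd34, Pi16, Dpp4 and Mfap5 were not. Of 32 extracellular matrix genes 14 rose and none fell (median 0.93). Of 13 markers of fibroblasts and fibro-adipogenic cells 6 rose and none fell (median 1.24), and their summed CPM was 1323 to 4273 in trained, 539 to 1226 in sham and 591 to 1446 in contralateral legs. Whether more such cells or more RNA per cell lay behind the matrix genes was not tested. Col4a1, a collagen of the basement membrane, measured 352, 244, 302, 207 and 212 CPM against 92.1, 75.1 and 102 CPM (1.53 ± 0.18; adjusted p = 1.2e-05). Serpinh1, the collagen chaperone Hsp47, rose by 1.23 ± 0.23 (adjusted p = 0.00187), and Sparc, a collagen-binding protein, by 0.96 ± 0.19 (adjusted p = 0.00357). The small proteoglycan Bgn measured 33.2 to 76.5 CPM against 9.26 to 19.2 CPM (1.85 ± 0.39; adjusted p = 0.00533; 0.0554 without TAL297).

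The fibrillar collagens varied more between legs. Col3a1 measured 832, 732, 1311, 439 and 437 CPM against 331, 139 and 295.2 CPM (1.53 ± 0.36; adjusted p = 0.0123). Legs TAL298 and TAL299 lay closest to the sham range, and the call was lost without TAL297 (adjusted p = 0.117) and in own-leg changes (0.0563). Col1a1 measured 331, 276, 567, 170 and 166 CPM against 159, 60.5 and 143 CPM; its groups did not overlap, and it was not called (1.28 ± 0.41; adjusted p = 0.0622). Dpt, Smoc2, Gsn and Lum, fibroblast genes of the matrix and the cytoskeleton, rose by 1.24 to 1.39, but none of these 4 calls held without TAL297 (adjusted p = 0.13, 0.159, 0.222 and 0.241). Gsn and Lum also lost theirs without TAL292, TAL294, TAL295 or TAL296 (0.0521 to 0.0813), Dpt without TAL296 (0.0534) and Smoc2 without TAL292 (0.0524). Without sham leg TAL297, 4 matrix genes and 0 fibroblast markers were called (limma, adjusted p under 0.05). In own-leg changes 13 matrix genes and 5 fibroblast markers were called.

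Markers of other cells were as follows. Of 18 macrophage markers Gpnmb alone was called, at 56.7, 26.3, 60.0, 62.4 and 36.1 CPM against 13.3, 2.47 and 25.9 CPM (2.17 ± 0.63; adjusted p = 0.0393). Its lowest trained leg was just above sham leg TAL300, and without TAL297 the adjusted p was 0.291; without TAL296, TAL292, TAL295, TAL298 or TAL299 it was 0.0848, 0.0862, 0.0711, 0.0636 and 0.0536. Cd68, a lysosomal macrophage marker, measured 1.54 to 4.52 CPM against 0.571 to 3.04 CPM (0.35 ± 0.40; adjusted p = 0.658). The macrophage markers summed to 95.8 to 232 CPM in trained, 39.7 to 123 CPM in sham and 36.0 to 91.2 CPM in contralateral legs. Ccl2, the chemokine that draws monocytes, measured 5.61, 2.63, 25.7, 5.27 and 12.3 CPM against 1.81, 0.317 and 1.07 CPM (2.51 ± 0.55; adjusted p = 0.00716). Csf1, a growth factor of macrophages, rose by 1.31 ± 0.29 (adjusted p = 0.00878). Of 11 cytokines and chemokines tested these 2 were called (median 0.90). Both calls were lost without TAL297 (adjusted p = 0.0684 and 0.0877) and in own-leg changes (0.0767 and 0.0949).

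Tendon markers (0 of 10 called; Thbs4 0.80 ± 0.58, adjusted p = 0.449), adipocyte markers (0 of 9; Fabp4 0.45 ± 0.20, adjusted p = 0.181) and the few lymphocyte and neutrophil markers tested (0 of 3 and 0 of 2) held no call. In own-leg changes 2 adipocyte markers were called higher. The lymphocyte markers summed to 4.27 to 11.3 CPM in trained and 2.59 to 7.13 CPM in sham legs. Of 14 smooth muscle and pericyte markers Cspg4, the pericyte proteoglycan NG2, rose (1.26 ± 0.25; adjusted p = 0.00388), and Lmod1 fell. Of 6 erythroid genes Hbb-bs was called higher, at 10.6 ± 2.09 against 3.72 ± 1.77 CPM (1.48 ± 0.31; adjusted p = 0.00481; 0.0546 without TAL296). Reads of near-identical globin copies could have been divided between entries. The sum of these blood genes was 225 to 475 CPM in trained, 131 to 251 CPM in sham and 283 to 539 CPM in contralateral legs. The part of blood in the other differences was not tested.

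The largest falls after Myh4 were of less abundant genes. Adgrb2, an adhesion receptor best known from brain, measured 0.518, 0.506, 3.36, 13.0 and 5.16 CPM in trained legs and 39.5, 55.6 and 40.4 CPM in sham legs (−3.85 ± 0.64; adjusted p = 0.000638). Its trained legs took the same order as those of Myh4 except between the 2 daily legs, which were nearly equal. Prima1, which anchors acetylcholinesterase to membranes, measured 1.31 to 3.71 CPM against 10.6 to 26.3 CPM (−2.60 ± 0.37; adjusted p = 0.000129). Tpx2, a spindle protein on the proliferation list, measured 5.01, 3.19, 5.45, 9.55 and 6.17 CPM against 66.1, 45.3 and 13.1 CPM (−2.52 ± 0.50; adjusted p = 0.00345). The other called members of that list went the other way: Ccnd1, Mki67 and Bub1 rose by 0.91, 1.06 and 0.69, and only Ccnd1 (19.6 to 23.5 CPM against 9.41 to 13.0 CPM; adjusted p = 0.0045) kept its call with each leg left out. Mki67 lost its call without TAL296, TAL297, TAL298 or TAL299 (adjusted p = 0.0504 to 0.195) and Bub1 without TAL296, TAL297, TAL292, TAL294 or TAL299 (0.0655 to 0.243), and both in own-leg changes (0.261 and 0.317).

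Nog, a secreted BMP antagonist, was at 0.950 to 2.42 CPM against 2.46 to 4.82 CPM (−0.93 ± 0.27; adjusted p = 0.0384), and Id1, a target of BMP signalling, rose from 7.43 ± 0.478 to 21.2 ± 5.29 CPM (1.42 ± 0.33; adjusted p = 0.0118). The call on Nog was lost without TAL292, TAL294, TAL298, TAL297 or TAL300 (adjusted p = 0.0614 to 0.206) and in own-leg changes (0.0844), where that on Id1 was lost too (0.423). Of the 20 genes of myostatin and activin signalling 3 rose and 1 fell (median 0.06). Lmod1, a nucleator of actin filaments best known from smooth muscle, measured 6.65, 13.8, 14.3, 16.3 and 35.0 CPM against 56.2, 86.5 and 80.9 CPM (−2.25 ± 0.33; adjusted p = 0.000204).

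Gstm2, a glutathione transferase, measured 10.4, 7.39, 7.60, 6.40 and 10.7 CPM against 40.1, 36.3 and 39.4 CPM (−2.14 ± 0.24; adjusted p = 6.95e-06), with the smallest SE of the 10 largest falls. Mss51, a gene of fast muscle, measured 6.93 to 35.2 CPM against 49.6 to 204 CPM (−2.02 ± 0.51; adjusted p = 0.0181), and its call was lost without TAL296 (adjusted p = 0.155) or TAL297 (0.0608). Ubxn10 fell by 2.24 ± 0.52 (adjusted p = 0.0114; 0.0674 without TAL296 and 0.0812 in own-leg changes). In polyamine metabolism, Sat1, which acetylates polyamines for export, rose by 1.45 ± 0.24 (adjusted p = 0.000578), and Smox, which oxidises spermine, fell by 0.82 ± 0.22 (adjusted p = 0.0237; 0.133 without TAL296, 0.131 without TAL297, 0.0588 without TAL292 and 0.0549 without TAL294). Of the 16 genes of that list 2 rose and 1 fell (median −0.02).

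The pooled trained group held legs of 2 schedules. Between them 9 of 10356 genes (0.0869%) were called by limma, in a fit with the schedules as separate levels. All 9 were lower in the 2 daily than in the 3 every-3-days legs. At an unadjusted p under 0.05 there were 609. Myh4 was at 330 ± 366 CPM in daily and 7499 ± 6706 CPM in every-3-days legs (−4.77 ± 0.68; adjusted p = 0.00586). Actn3 was at 2258 ± 1101 against 7776 ± 1162 CPM (−1.86 ± 0.29; adjusted p = 0.0121), and Adgrb2 at 0.512 ± 0.00855 against 7.19 ± 5.15 CPM (−2.72 ± 0.50; adjusted p = 0.0471). For these 3 genes the daily legs lay farther from the sham legs. Gpt2, a mitochondrial alanine transaminase, measured 66.8 and 103 CPM in daily, 157, 188 and 165 CPM in every-3-days and 261 to 277 CPM in sham legs. Slc37a4, the glucose-6-phosphate transporter, had the same order, with 68.6 and 81.4, then 112 to 133, then 156 to 165 CPM. Against sham, Gpt2 fell by 1.07 ± 0.23 (adjusted p = 0.00716; own-leg 0.101) and Slc37a4 by 0.67 ± 0.17 (adjusted p = 0.0159; 0.0723 without TAL296, 0.0666 without TAL297 and 0.123 in own-leg changes).

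Gdf15, a stress hormone, went the other way against sham. It measured 1.30 and 0.911 CPM in daily and 11.8, 9.11 and 9.05 CPM in every-3-days legs, and 0.164, 0 and 0 CPM in sham legs (trained against sham 3.16 ± 0.57, adjusted p = 0.00147; daily minus every 3 days −2.71 ± 0.35, adjusted p = 0.00321). Ctdp1, a phosphatase of RNA polymerase II, measured 29.8 and 31.4, then 64.9, 71.1 and 66.2 CPM, against 19.4 to 20.9 CPM in sham legs. The daily legs were thus between the sham and the every-3-days legs for both. Mdga1, a neural adhesion protein (−1.43 ± 0.25), and Rnf145, a ubiquitin ligase (−1.05 ± 0.18), both with adjusted p = 0.0356, were not called between pooled trained and sham legs. With only the daily legs as trained, Mdga1 was called lower than sham (−1.066, limma adjusted p = 0.026). With only the every-3-days legs, Rnf145 was called higher (1.031, adjusted p = 0.00103). Rnf145 was also called without TAL294 (adjusted p = 0.035) and with equal weight to the schedules (0.0378). Leaving out TAL295, TAL298 or TAL299 gave 4 calls between schedules each time. Of the 9 genes, 4 stayed called without TAL295 or TAL299 and 3 without TAL298. Leaving out TAL292 or TAL294 left a single daily leg. How far the 9 calls rest on either of these legs cannot be told from such a fit. In own-leg changes 0 were called, with 483 at an unadjusted p under 0.05.

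**Figure D4:**
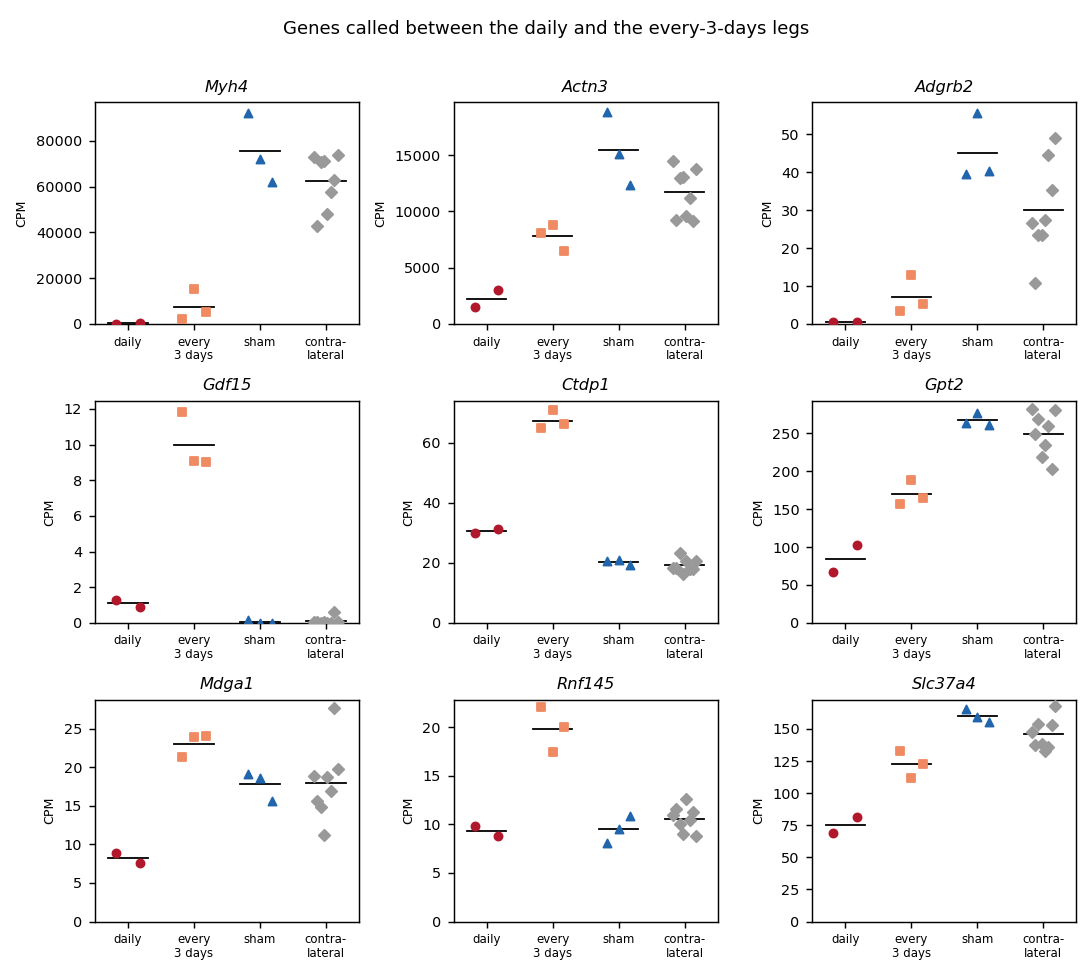
CPM of the 9 genes called between schedules, in the 2 daily, 3 every-3-days, 3 sham and 8 contralateral legs. Points are legs and lines group means on axes from 0. Daily legs are below every-3-days legs in all panels, with Myh4, Actn3, Adgrb2, Gpt2 and Slc37a4 lowest in daily legs and Gdf15 and Ctdp1 highest in every-3-days legs.

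The right legs of trained and of sham rats were compared next. Of 10356 genes 0 (0.0%) were called by limma, and 608 had an unadjusted p under 0.05. The genes called higher in trained left legs had a median difference of 0.03 between the right legs of trained and of sham rats, against 0.99 in the left legs, and those called lower a median of 0.02 against −0.66. Among the 99 called genes that are named or shown here, 5 differed by more than 1 on the log2 scale between right legs, namely Nr4a3 (2.40 ± 0.63), Atf3 (1.15 ± 0.34), Id1 (1.01 ± 0.25), Fosb (−1.40 ± 0.57) and Egr1 (−1.46 ± 0.56), all with adjusted p = 0.839. Nr4a3 held 3.08 to 64.9 CPM in right legs of trained rats and 1.42 to 6.70 CPM in those of sham rats. Levels of Fosb were the reverse, with 0.605 to 1.40 CPM and 0.869 to 9.24 CPM. These right legs had no labelled sampling time.

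**Figure D5:**
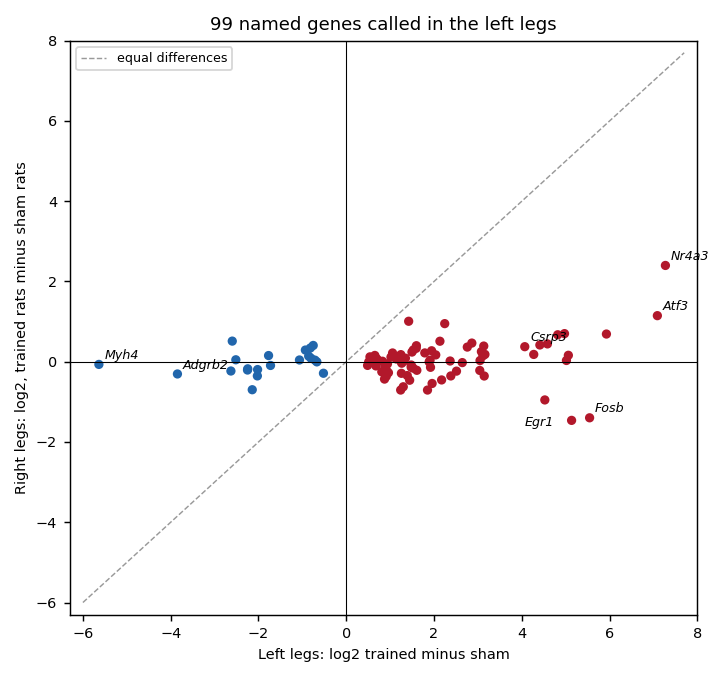
Log2 difference of trained minus sham in left legs (horizontal) against that of the right legs of trained minus sham rats (vertical), for the 99 genes called in the left legs and named by the rule, red for called higher and blue for called lower. Right-leg differences run from −1.46 to 2.40 with most near 0, below the dashed line of equal differences for Nr4a3 (7.27 in left and 2.40 in right legs).

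When each left leg was set against the right leg of the same rat and these own-leg changes were compared between trained and sham rats, 311 genes were called (3.0%), 245 higher (2.37%) and 66 lower (0.637%). Of these, 257 were also called in the unpaired comparison, which is 82.6% of the own-leg calls and 28.8% of the unpaired calls. The immediate early genes gave 19 calls in place of 21, the stretch and load genes 7 in place of 9 and the chaperones 10 in place of 14. Some lists held more calls higher, namely adipocyte markers (2 in place of 0) and, each with 2 in place of 1, oxidative phosphorylation, MAP kinase phosphatases and insulin and IGF signalling. Of the atrophy and autophagy genes 1 was called lower in place of 0. Several other lists held fewer calls. The fast-fibre genes called lower went from 8 to 1, and the slow and oxidative fibre genes called higher from 4 to 1. Denervation and junction genes called higher went from 3 to 1, and so did those of regenerating fibres and satellite cells. Of the excitability genes 0 were called higher in place of 3 and 1 lower in place of 4, and of the calcium handling genes 1 higher in place of 2 and 1 lower in place of 3. Own-leg changes were smaller for Nr4a3 (4.87 against 7.27), whose right legs measured more in trained than in sham rats, and larger for Fosb (6.94 against 5.55) and Egr1 (6.60 against 5.14). Myh4 kept its size, with an own-leg change of −5.57 (adjusted p = 0.0458).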

How the data were processed

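The deposited rat table holds CPM for 13166 transcript models, with 0.0001 added to each value by the authors; it was subtracted, after which each column summed to 1000000. Models were summed to 12411 gene symbols (492 with several). Per the submitters' processing notes the tools were Partek, STAR 2.7.8a and DESeq2, with no role stated for any of them. Coordinates are those deposited, taken as the rat build rn7 of those notes, which also list mm10 and GRCm39. Low CPM values were whole multiples of a step for 87.6 to 89.5% of values worth up to 20 reads (tolerance 0.05), under the 95% needed, so depth is an estimate and no count test was run. The table held 0 mitochondrial rows, so a mitochondrial share was not computed, and Xirp1 was not analysed here.

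Groups came from the labels. Genes with CPM of 1 or more in at least 2 of 16 libraries were tested on log2(CPM + 0.5) by limma (version 3.58.1, R version 4.3.3; trend, 2-sided, levels trained, sham and contralateral), which understates the change of low genes. For the schedules the levels were daily, every 3 days, sham and contralateral. For the right legs they were the left and right legs of trained rats and those of sham rats. Single values used exact permutation tests. Left and right legs of the same number came from the same rat; across genes, the deviations of its 2 legs from their group means had a correlation of 0.042 to 0.256. The unpaired fit is the main one, and the replicate block was the alternative. No 2 libraries held identical values (r 0.923 to 0.992). The members and gene lists were chosen with earlier results of these data known. Genes were named as the 15 largest rises and 10 largest falls without overlap, up to 5 called members of each list by p (or its 2 most abundant), 27 fixed genes, and, added after seeing the data, the 9 genes called between schedules and the myosin shares. A few genes that this rule picked are not reported here, though gene list counts include them. Other steps ran in python 3.11.15 with scipy 1.17.1, matplotlib 3.10.9, pandas 2.3.3 and numpy 2.4.6.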

Additional observations from a re-analysis of the deposited data

Results flagged for a closer look

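Of 132 sets of legs looked at for a single leg apart from its group, 9 had one, where chance gives about 1 in 20. Leg TAL292, trained daily and the shallowest trained library, held 5 of the 8 that concern genes by a high value, namely Csrp3 (2734 CPM), Hspb7 (4819 CPM), Cryab (2773 CPM), Tnfrsf12a (212 CPM) and Gabarapl1 (197 CPM), and 1 by a low value, Gpd1 (505 CPM). Among the other trained legs, TAL294 was low for Mss51 (6.93 CPM) and TAL295 high for Ptprc (5.02 CPM). Contralateral leg TAR299, the shallowest library, had the fewest genes above 0 (10950).

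Between the schedules 9 genes were called by the test of daily against every-3-days legs itself, and 0 in own-leg changes. The log2 differences were −4.77 for Myh4, −2.72 for Adgrb2, −2.71 for Gdf15, −1.86 for Actn3 and −1.43 for Mdga1. They were −1.13 for Ctdp1, −1.05 for Rnf145, −1.03 for Gpt2 and −0.71 for Slc37a4. All were lower in the 2 daily legs.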

How the results depend on the processing

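The 891 calls between trained and sham legs came to 820 to 1018 with another pseudocount, filter, choice of transcript model, rescaling, weighting of schedules or variance estimate, or with the 8 left legs alone. Leaving out each left leg in turn gave 409 to 961 calls, with the lowest counts without sham leg TAL297 (409), sham leg TAL296 (415) or trained leg TAL292 (574). Without contralateral leg TAR299, the 1 right leg left out for this comparison, there were 1511. With the replicate block (own-leg changes) 311 were called. In alternatives chosen after seeing the data, the every-3-days legs alone gave 434 calls, the daily legs alone 687, and leaving out the 4 adult myosins 827; the cause was not tested. Between schedules the 9 calls became 7 to 11 under other settings, 3 to 14 without 1 leg, the lone daily leg then being assumed to vary like the others, and 0 with the replicate block. Between the right legs every alternative gave 0. Of 99 named genes called, 53 passed in every alternative that tested them and 0 changed direction. The filter of CPM 1 or more in at least 8 libraries tested 95 of the 99. It left out Dlk1 and also Dusp2, Egr2 and Gdf15, whose sham legs were all under 1 CPM. Leaving out the adult myosins tested 97. With the block 32 lost the call, and without TAL296 or TAL297 31 each. Signs turned for 10 genes that were not called. Without 1 leg the log2 change ran from −0.579 to 0.218 for Cd4, −0.178 to 0.684 for Cd68, −0.27 to 0.444 for Chrna1, −0.691 to 0.062 for Mstn, −0.364 to 0.036 for Mdga1, −0.083 to 1.779 for Myh2, −0.032 to 2.265 for Myh7 and −0.048 to 0.04 for Rpl3l. With the block it was 0.49 for Cd4, 0.09 for Rpl3l and −0.052 for Tufm. With daily legs only it was 0.111 for Cd4, −0.095 for Chrna1, −0.016 for Rnf145 and 0.102 for Rpl3l, and with every-3-days legs only 0.367 for Mdga1 and 0.295 for Mstn. Rescaling gave −0.037 and leaving out the myosins −0.008 for Chrna1, and equal weight to the schedules 0.008 for Rpl3l. Estimated depth, 11.6 to 28.0 M reads, limits low genes most.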
